A study of Homo sapiens with 18 samples.

Results

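The genes described here encode the subunits of the proteasome, its activators, its inhibitor PI31 and the chaperones that assemble its regulatory particle. They were chosen by name, as the array targets whose symbol begins with PSMA to PSMG followed by a number. This rule found 70 of the 48803 probes and 44 of the 38071 named targets. Of the 44, 43 are proteasome genes with 68 probes, and PSMC3IP, a recombination factor named for binding PSMC3, is not and is counted apart. A gene was measured where a probe was detected (detection p under 0.01) on at least 3 arrays, which left 41 of the 43. The alpha ring subunit PSMA7 and its testis-specific relative PSMA8 were detected on 0 arrays, and the signal of the only PSMA7 probe was 8.4 to 25.5 intensity units.

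HK-2, an immortalised line of human proximal tubule epithelium, was hybridised on 18 Illumina HumanWG-6 arrays, each from its own flask, in 6 groups of 3. The groups were TGF-beta1 at 2 ng/mL together with C-peptide at 5 nM for 48 h, TGF-beta1 alone for 48 h, C-peptide alone for 48 h, untreated control for 48 h, C-peptide for 18 h and untreated control for 18 h. All flasks shared a switch to medium with lower glucose and a night without serum before treatment, and both incubation times ended at the same harvest. The titles of the 3 arrays of the TGF-beta1 group name TGF-beta without an isoform number. The free-text notes of its replicates 2 and 3 name TGF-b2 and TGF-b3, and the 3 arrays were treated as replicates of TGF-beta1. TGF-beta1 is a growth factor of fibrosis and epithelial dedifferentiation, and C-peptide is the fragment cut from proinsulin. All flasks are of a single cell line, so p-values measure the spread between flasks of that line.

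The 20S core of the proteasome is a barrel of alpha and beta rings in which PSMB5, PSMB6 and PSMB7 cut proteins. In cells exposed to interferon these catalytic subunits are replaced by PSMB8, PSMB9 and PSMB10, which form the immunoproteasome and favour peptides that fit MHC class I molecules. The 19S particle, made of PSMC ATPases and PSMD subunits, binds ubiquitin-tagged proteins and threads them into the core, and the PSME activators are alternative caps. In mammalian cells the transcription factors NFE2L1 and NFE2L2 are known to act on subunit genes through antioxidant response elements, and interferon acts through factors such as STAT2, IRF9 and IRF1 at interferon-stimulated response elements.

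Promoter sequence is shown for these genes because both kinds of element have a short core that can be looked for by its letters. Windows of 300 bases, 250 before to 50 after each RefSeq gene start on GRCh38.p14, were found for 37 of the 41 measured genes. They were searched on both strands for GAAA, any 2 bases and GAAA again, the core of an interferon-stimulated response element, and for TGACNNNGC, the core of an antioxidant response element. In the windows of the measured genes, no match of one motif overlapped a match of the other. A match of the interferon core is printed for PSMB8 (chr6:32844002-32844091, minus strand, beginning 4 bases before the second of its 2 starts and running past it), PSMB10 (chr16:67936822-67936911, minus strand, beginning 21 bases before the start), PSME1 (chr14:24136159-24136243, plus strand, beginning 5 bases after the start) and PSME2 (chr14:24146589-24146678, minus strand, beginning 28 bases before the start). The PSMB9 window held no such match, but that of its neighbour TAP1, transcribed the other way from a nearby start, held 2 overlapping matches, of which the one beginning 134 bases before the TAP1 start is shown (chr6:32853789-32853878, minus strand). Each stretch is read 5′ to 3′ along the gene, with the motif in capitals, and a match on the opposite strand reads TTTC, any 2 bases and TTTC.
PSMB8: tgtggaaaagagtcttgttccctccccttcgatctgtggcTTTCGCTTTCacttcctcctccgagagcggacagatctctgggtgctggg
PSMB10: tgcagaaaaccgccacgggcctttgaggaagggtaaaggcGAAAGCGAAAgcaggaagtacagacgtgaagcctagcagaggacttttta
PSME1: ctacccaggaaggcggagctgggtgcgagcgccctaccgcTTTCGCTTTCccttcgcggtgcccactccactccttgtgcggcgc
PSME2: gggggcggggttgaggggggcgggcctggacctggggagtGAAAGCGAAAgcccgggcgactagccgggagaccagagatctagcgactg
TAP1: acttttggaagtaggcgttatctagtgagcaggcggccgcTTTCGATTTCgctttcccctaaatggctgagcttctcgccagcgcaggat

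The interferon core was present in 2 of the 3 immunoproteasome genes and in 4 of 5 when PSME1 and PSME2 are added, against 4.38% of the 27305 genes with a window. Among the standard core and 19S subunits it was present in 2 of 26 with a window (PSMB4 and PSMA4), or 7.69%. The antioxidant core was present in 7 of these 26 (26.9%), against 16.1% of all genes. It was also present in 3 of the 5 genes of the immunoproteasome and PA28 (PSMB9, PSME1 and PSME2), so it was not confined to the standard subunits. Of the standard subunits that rose with TGF-beta1 in the results that follow, 19 had a window and 6 of them (31.6%) held it. Of the 7 with a window that were not called, 1 (PSMD12, 14.3%) held it. The difference between these shares was not tested. The antioxidant core is shown for 3 subunits that rose in both TGF-beta1 comparisons. They are the 19S subunits PSMD3 (chr17:39980730-39980818, plus strand, 37 bases before the start) and PSMD1 (chr2:231056866-231056916, plus strand, 39 bases after the start) and the beta ring subunit PSMB3 (chr17:38752597-38752685, plus strand, 104 bases before the start). These matches are letters in a window and were not tested as sites.
PSMD3: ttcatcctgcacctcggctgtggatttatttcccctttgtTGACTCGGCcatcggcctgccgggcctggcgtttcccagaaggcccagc
PSMD1: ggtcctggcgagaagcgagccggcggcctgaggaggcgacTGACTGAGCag
PSMB3: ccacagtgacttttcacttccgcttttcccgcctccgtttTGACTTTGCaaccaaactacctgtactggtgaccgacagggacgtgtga

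Mean signal per array was 216 to 344 intensity units, 14580 to 15818 probes per array were detected, and each of the 41 probes used for a proteasome gene was detected on all 18 arrays. Values are log2 intensities after background correction and quantile normalization, and they are compared only within a gene, because probes differ in brightness. The median SD between replicates over the proteasome genes was 0.07 to 0.13 in the 6 groups. The column headers number the arrays consecutively and name no sets. Array sets were assumed here by cutting the numbers into consecutive runs of 6, and whether a run is a chip, scan or batch is not stated. On that cut the 48 h control and TGF-beta1 arrays form 1 set, both 48 h C-peptide groups a second and both 18 h groups another. Comparisons across sets cannot be told apart from a difference between sets. Both TGF-beta1 responses and the 18 h C-peptide response lie within a set. The epithelial markers EPCAM, CDH1, KRT8, KRT18 and KRT19 were all measured. Of 18 listed proximal tubule markers 5 were measured (GGT1, MME, SLC4A4 and PAX8 among them), while LRP2, CUBN and AQP1 were among the 13 detected on 0 arrays.

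TGF-beta1 for 48 h moved the proteasome genes in opposite directions by kind. Genes of the standard core and the 19S particle rose, by up to 2.01-fold for PSMD2, and all 3 immunoproteasome subunits fell. Of the 41 measured genes 23 rose and 5 fell (limma, adjusted p under 0.05), when 21.9% of all 12468 genes rose and 23.2% fell (45.1% called in all). The median change of the 41 was 0.30 on the log2 scale, against -0.01 over all genes. With C-peptide present in both arms, TGF-beta1 plus C-peptide against C-peptide alone, 20 rose and 4 fell (43% of all genes called, 21.3% higher and 21.7% lower), with a median of 0.22 against 0.00 over all genes. Groups without overlap between arrays were found for 28 genes higher and 5 lower with TGF-beta1 (28.2% and 30.3% of all genes, 58.5% in all), and for 25 higher and 4 lower with C-peptide present (27.9% and 27.5%, 55.4% in all). The 2 responses share no array. The same 19 genes rose in both, which is 19 of 23 and 19 of 20, and 4 fell in both (PSMB8, PSMB9, PSMB10 and PSME1). The share of all genes called alike in both responses was not counted. In bulk RNA a change in the number of cells of a kind and a change in RNA per cell cannot be told apart.

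**Figure D1:**
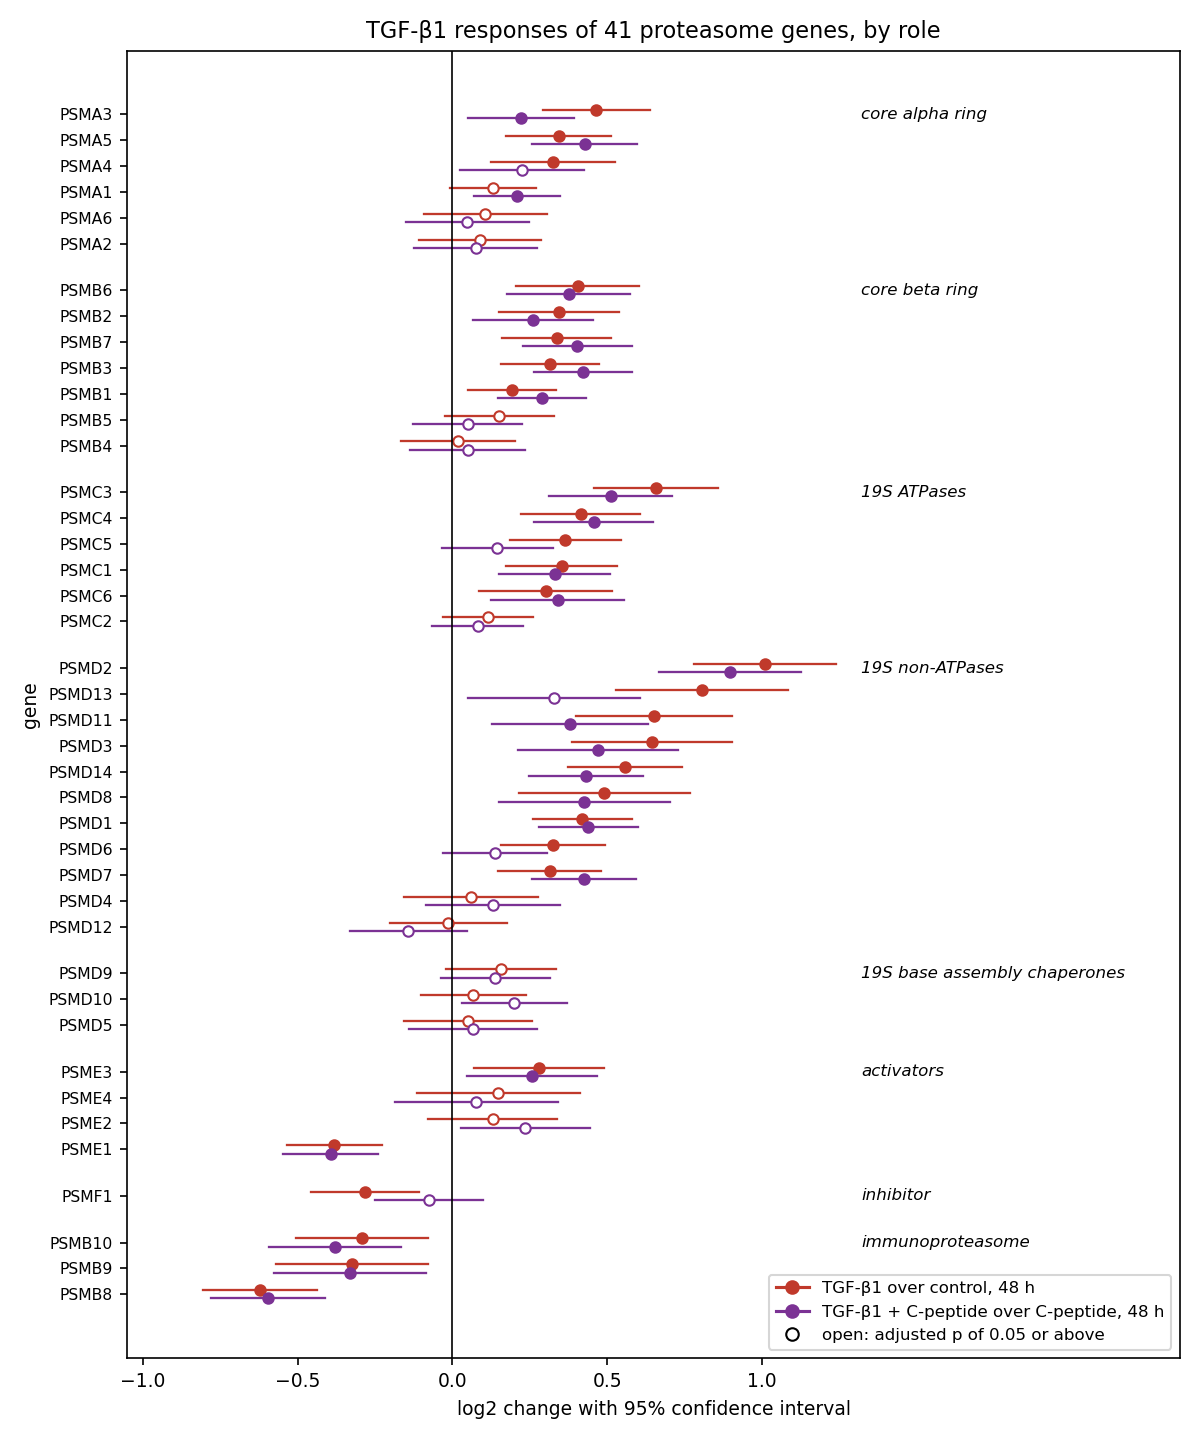
Log2 change of each of the 41 proteasome genes with its 95% confidence interval (x axis), for TGF-beta1 over control (red) and TGF-beta1 plus C-peptide over C-peptide (purple) at 48 h, 3 arrays per group, with genes down the page by role and open points where the adjusted p is 0.05 or above. Core and 19S subunits lie right of 0 except PSMD12, and PSME1, PSMF1 and the 3 immunoproteasome subunits lie left of it.

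The immunoproteasome subunits were lower with TGF-beta1 both alone and with C-peptide. PSMB8, the chymotrypsin-like subunit beta-5i, read 9.44, 9.32 and 9.41 log2 units with TGF-beta1, against 9.94, 10.10 and 9.99 in 48 h controls. It read 9.51, 9.43 and 9.40 with both agents, against 10.10, 9.99 and 10.04 with C-peptide alone. Every TGF-beta1 array lay below every array without it at 48 h. PSMB8 fell by 0.62 on the log2 scale (SE 0.09, 95% confidence interval -0.80 to -0.44, adjusted p = 7.87e-06, limma), to 0.650 of the control level, and by 0.60 with C-peptide present (SE 0.09, adjusted p = 1.4e-05, limma). All 4 probes of PSMB8 that were kept had negative changes with TGF-beta1, from -0.62 to -0.27, and 3 of the 4 passed.

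PSMB9 and PSMB10 fell by less and their calls were less secure. PSMB9, beta-1i, read 7.44, 7.60 and 7.34 with TGF-beta1, against 7.68, 7.86 and 7.81 in controls. It read 7.47, 7.55 and 7.59 with both agents, against 8.001, 7.79 and 7.81 with C-peptide. The groups did not overlap in either comparison, with falls of 0.33 (SE 0.12, adjusted p = 0.0297, limma) and 0.33 (SE 0.12, adjusted p = 0.0285, limma). PSMB10, beta-2i, read 10.28, 10.18 and 10.23 with TGF-beta1, against 10.51, 10.59 and 10.48 in controls. It read 10.41, 10.34 and 10.35 with both agents, against 10.89, 10.75 and 10.58 with C-peptide, so again no TGF-beta1 array reached its comparison group. PSMB10 fell by 0.29 (SE 0.10, adjusted p = 0.0241, limma) and by 0.38 (SE 0.10, adjusted p = 0.00507, limma). For TGF-beta1 alone both calls kept their sign but were lost in 5 of 15 alternative fits, with adjusted p up to 0.125 for PSMB9 (without control replicate 2 or 3, without TGF-beta1 replicate 1 or 3, or with no detection filter) and 0.0829 for PSMB10 (without control replicate 2, without TGF-beta1 replicate 2 or 3, with median scaling or with no detection filter). With C-peptide present PSMB9's call was lost in 4 of 15 (without C-peptide replicate 1, without replicate 1 or 2 of both agents, or with no detection filter), and PSMB10's in 1 (median scaling).

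None of the standard counterparts of these subunits was called lower. PSMB6, the caspase-like beta-1 subunit that PSMB9 replaces, read 12.02, 11.77 and 11.94 with TGF-beta1, against 11.53, 11.59 and 11.39 in controls. With both agents it read 11.91, 11.98 and 11.78, against 11.61, 11.41 and 11.53 with C-peptide. It rose by 0.40 (SE 0.10, adjusted p = 0.00168, limma) and by 0.38 (SE 0.10, adjusted p = 0.00323, limma), with no overlap in either comparison. PSMB7, the trypsin-like beta-2 subunit that PSMB10 replaces, read 12.45, 12.37 and 12.44 with TGF-beta1, against 12.04, 12.17 and 12.04 in controls. With both agents it read 12.41, 12.51 and 12.42, against 11.97, 12.03 and 12.13 with C-peptide, and it rose by 0.34 (SE 0.08) and 0.40 (SE 0.08). PSMB5, the chymotrypsin-like beta-5 subunit that PSMB8 replaces, differed by 0.15 (95% confidence interval -0.02 to 0.33, adjusted p = 0.152, limma) and 0.05 (-0.13 to 0.23, adjusted p = 0.666, limma), neither passing. Its arrays read 10.99, 11.06 and 10.95 with TGF-beta1, against 10.86, 10.89 and 10.78 in controls, a narrow gap with no overlap. A difference in change between a subunit and its counterpart was not tested.

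**Figure D2:**
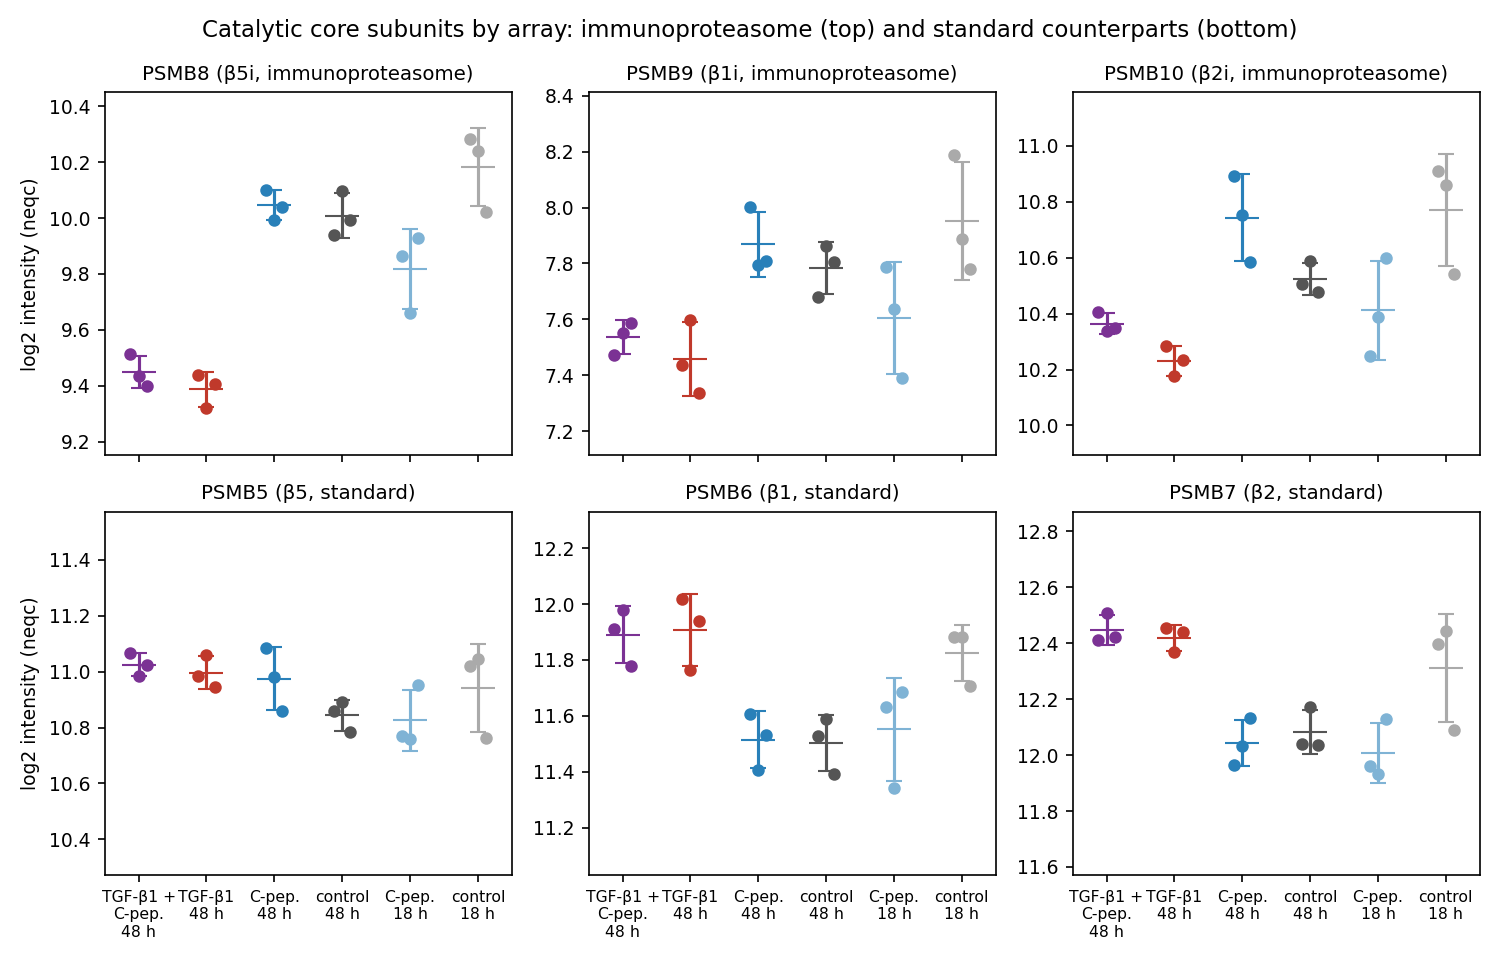
Log2 intensity (y axis) of the 3 immunoproteasome subunits (top) and their standard counterparts (bottom) on each of the 18 arrays, by group along the x axis, with horizontal bars for the mean and error bars for the SD of 3 arrays and the same span of y axis in each panel (C-pep. stands for C-peptide). PSMB8 lies between 9.32 and 9.51 on the 6 TGF-beta1 arrays and between 9.94 and 10.10 on the other 48 h arrays, while PSMB6 and PSMB7 lie higher on the TGF-beta1 arrays than on the other 48 h arrays.

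Of the 13 measured core ring genes that are not immunoproteasome subunits, 8 rose and 0 fell in each TGF-beta1 comparison. Of all genes 21.9% rose and 23.2% fell without C-peptide, and 21.3% and 21.7% with it. The changes of all 13 had a positive sign in both. In the alpha ring, whose subunits gate the entry to the core, 3 of 6 rose in each. PSMA3 read 10.89, 10.96 and 10.95 with TGF-beta1, against 10.48, 10.51 and 10.41 in controls, and rose by 0.47 (SE 0.08, adjusted p = 0.00011, limma). It rose by 0.22 (SE 0.08, adjusted p = 0.0358, limma) with C-peptide present, where the C-peptide group itself read higher, at 10.94, 10.90 and 10.70 against 11.08, 11.10 and 11.02 with both agents. PSMA5 read 11.98, 12.06 and 11.84 with TGF-beta1, against 11.56, 11.68 and 11.61 in controls, and rose by 0.34 and, with C-peptide, by 0.43 (SE 0.08 each). Thus both subunits were higher in every TGF-beta1 array than in its comparison group. PSMA4 rose only past the threshold without C-peptide (0.33, and 0.22 with it, adjusted p = 0.0646, limma), and PSMA1 only past it with C-peptide (0.21, against 0.13 without it). PSMA2 and PSMA6 had changes of 0.09 and 0.11 that did not pass. In the beta ring 5 of 7 rose in each, the structural subunits PSMB1 (0.19 and 0.29), PSMB2 (0.34 and 0.26) and PSMB3 (0.32 and 0.42) beside PSMB6 and PSMB7. PSMB4, at 0.02 and 0.05, did not pass.

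The 19S particle held the largest changes. Of its 17 measured ATPase and non-ATPase subunits 14 rose with TGF-beta1 and 11 with C-peptide present (21.9% and 21.3% of all genes). In both comparisons 0 fell (23.2% and 21.7% of all genes), and the median changes of the 17 were 0.41 and 0.38. PSMD2, a scaffold subunit that docks ubiquitin receptors, read 11.59, 11.46 and 11.30 with TGF-beta1, against 10.43, 10.58 and 10.31 in controls. With both agents it read 11.21, 11.11 and 11.24, against 10.12, 10.30 and 10.45 with C-peptide. The lowest TGF-beta1 array stood well above the highest array without it. PSMD2 rose by 1.01 (SE 0.11, 95% confidence interval 0.78 to 1.24, adjusted p = 2.56e-07, limma) and by 0.90 (SE 0.11, adjusted p = 1.34e-06, limma). Its call held in all 15 alternative fits of each comparison, with a change of at least 0.94 and 0.81.

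Other lid and scaffold subunits followed the same direction. PSMD14, the deubiquitinase that cuts ubiquitin chains from substrates, read 11.12, 11.23 and 11.35 with TGF-beta1, against 10.63, 10.59 and 10.80 in controls, and rose by 0.56 (SE 0.09, adjusted p = 2.97e-05, limma). PSMD11, a lid subunit that promotes assembly of the full particle, read 7.58, 7.52 and 7.65, against 7.19, 6.67 and 6.93 in controls, and rose by 0.65 (SE 0.12, adjusted p = 0.000178, limma). PSMD3, another lid subunit, read 7.39, 7.85 and 7.55, against 7.06, 7.06 and 6.74 in controls, and rose by 0.64 (SE 0.12, adjusted p = 0.000257, limma). None of these 3 overlapped its controls. With C-peptide present they rose by 0.43 (SE 0.09), 0.38 (SE 0.12) and 0.47 (SE 0.12). PSMD8 read 9.31, 9.16 and 9.07, against 8.61, 8.94 and 8.51 in controls, and rose by 0.49 (SE 0.13) and, with C-peptide, by 0.43 (SE 0.13, a call lost without C-peptide replicate 2 at an adjusted p = 0.0636, limma). PSMD1, the second large scaffold subunit, read 10.79, 10.77 and 10.90, against 10.37, 10.38 and 10.45 in controls, and rose by 0.42 and 0.44 (SE 0.08 each). PSMD7 rose in both (0.31 and 0.42) and PSMD6 without C-peptide (0.33, and 0.14 with it, which did not pass).

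PSMD13, a lid subunit, gave the widest gap between the comparisons. It read 6.98, 7.14 and 7.20 with TGF-beta1, against 6.48, 6.36 and 6.06 in controls, and 6.98, 7.30 and 7.20 with both agents, against 7.03, 6.69 and 6.77 with C-peptide. The arrays of the TGF-beta1 groups covered nearly the same range, and the C-peptide arrays all stood above the controls. PSMD13 rose by 0.81 (SE 0.13, adjusted p = 5.13e-05, limma), and with C-peptide its change of 0.33 (SE 0.13, adjusted p = 0.0531, limma) did not pass. The difference between these changes, -0.48 (SE 0.19, adjusted p = 0.999, limma), did not pass. PSMD4, a ubiquitin receptor, did not pass (0.06 and 0.13). PSMD12 had -0.01 and -0.14 by the probe used, while its dimmer probe read 0.48 (adjusted p = 0.00497, limma over all kept probes) and 0.37, so the direction of this gene is uncertain.

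Among the 6 ATPases that unfold substrates, 5 rose with TGF-beta1 and 4 with C-peptide present (21.9% and 21.3% of all genes). All 6 were higher without overlap in both comparisons (28.2% and 27.9% of all genes, with the share in both not counted). PSMC3 read 10.28, 10.20 and 10.05 with TGF-beta1, against 9.57, 9.55 and 9.43 in controls. It rose by 0.66 (SE 0.10, adjusted p = 1.1e-05, limma) and, with C-peptide, by 0.51 (SE 0.10, adjusted p = 0.000203, limma). PSMC4 read 9.51, 9.34 and 9.55, against 8.9996, 9.05 and 9.11 in controls, and rose by 0.41 (SE 0.09) and 0.46 (SE 0.09). Both ATPases thus stood above their controls on every TGF-beta1 array. PSMC1 (0.35 and 0.33) and PSMC6 (0.30 and 0.34) rose in both. PSMC5 rose by 0.36 without C-peptide, and its change of 0.15 with it did not pass. PSMC2 did not pass in either (0.12 and 0.08).

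**Figure D3:**
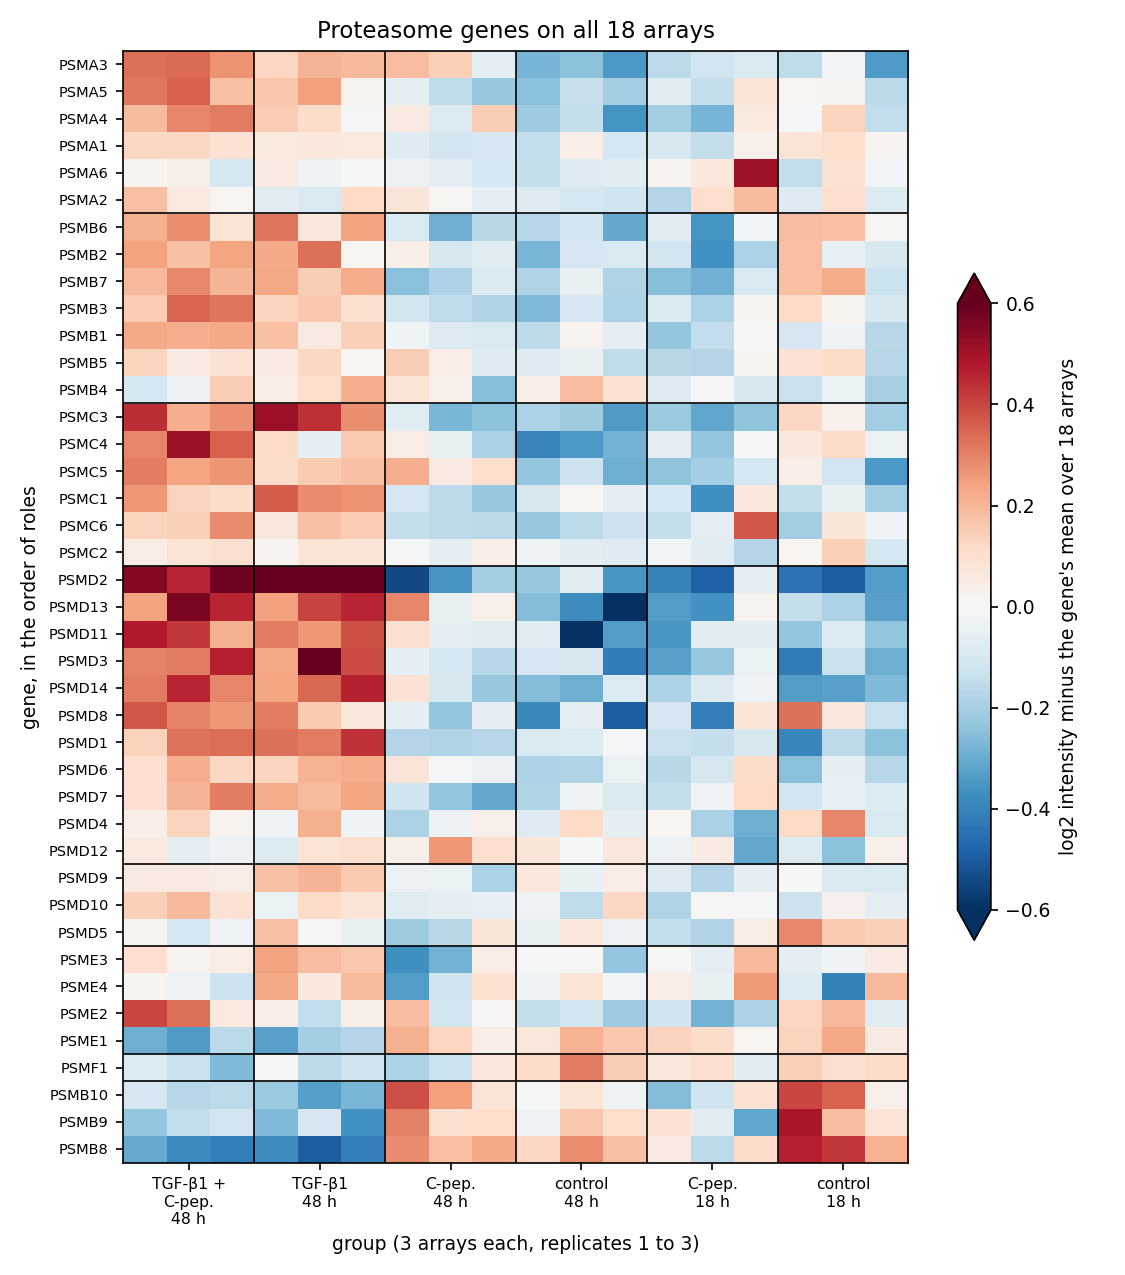
Log2 intensity of each of the 41 genes (rows, by role, with lines between roles) on each of the 18 arrays (columns, 3 per group, C-pep. standing for C-peptide), as the difference from the gene's mean over all arrays, with the colour scale ending at 0.6 either way. The 6 TGF-beta1 columns are red for most core and 19S rows and blue for the 3 immunoproteasome rows and PSME1.

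The chaperones that build the 19S base, PSMD5, PSMD9 and PSMD10, gave 0 of 3 called in either TGF-beta1 comparison by the probes used (45.1% and 43% of all genes called). Their changes were 0.05, 0.16 and 0.07 with TGF-beta1, and 0.07, 0.14 and 0.20 with C-peptide present (limma, lowest adjusted p = 0.0536, for PSMD10, the only 1 of the 3 with an unadjusted p under 0.05 there). Both dimmer probes of PSMD10 were called higher, at 0.43 and 0.25 with TGF-beta1 and 0.43 and 0.39 with C-peptide present, so the call for this gene depends on the probe. The chaperones of the core were found only under older names in the table. PSMG1 rose by 0.46 (SE 0.11, adjusted p = 0.00154, limma) and 0.49 (SE 0.11, adjusted p = 0.000915, limma), with 9.76, 9.72 and 9.75 in TGF-beta1 arrays, against 9.16, 9.45 and 9.23 in controls. Its partner PSMG2 did not pass (0.05 and 0.10), and PSMG3 and PSMG4 were not matched.

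The activators split. PSME1, the alpha subunit of the interferon-inducible cap PA28, read 11.93, 12.05 and 12.07 with TGF-beta1, against 12.32, 12.46 and 12.42 in controls. With both agents it read 11.96, 11.91 and 12.09, against 12.47, 12.38 and 12.29 with C-peptide. Every TGF-beta1 array lay below its comparison group, with falls of 0.38 (SE 0.07, adjusted p = 0.000271, limma) and 0.39 (SE 0.07, adjusted p = 0.00021, limma). PSME2, the beta subunit that forms the same ring with PSME1, read 10.36, 10.17 and 10.36, against 10.18, 10.21 and 10.11 in controls, and the groups overlapped. Its changes of 0.13 (95% confidence interval -0.08 to 0.34) and 0.24 (0.03 to 0.45, adjusted p = 0.0626, limma) did not pass, and the second passed in 5 of 15 alternative fits. Both promoters hold the interferon core printed earlier, and a difference in change between PSME1 and PSME2 was not tested.

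PSME3, the nuclear activator PA28-gamma, read 9.48, 9.42 and 9.40 with TGF-beta1, against 9.22, 9.23 and 9.001 in controls. It rose by 0.28 (SE 0.10, adjusted p = 0.029, limma) and by 0.26 (SE 0.10, adjusted p = 0.045, limma), calls near the threshold that were lost in 4 and 7 of 15 alternative fits. Those fits left out control replicate 3 or TGF-beta1 replicate 1 or 2 in the first comparison, and C-peptide replicate 1 or 2 or any array of both agents in the second, or used no detection filter (either comparison) or the replicate block (the second). The activator PSME4, known as PA200, did not pass (0.15 and 0.08). PSMF1, the inhibitor PI31, read 10.70, 10.55 and 10.59 with TGF-beta1, against 10.82, 11.02 and 10.85 in controls, and fell by 0.28 (SE 0.08, adjusted p = 0.00924, limma), which missed the threshold at an adjusted p = 0.0621 in limma when control replicate 2 was left out. With C-peptide its change of -0.08 (95% confidence interval -0.25 to 0.10) did not pass and turned positive, to 0.04, under median scaling. In that comparison the PSMF1 arrays read 10.63, 10.57 and 10.44 with both agents, against 10.52, 10.58 and 10.77 with C-peptide, and overlapped.

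Partners that work with the proteasome were listed apart from the subunits, 35 genes of which 32 were measured. With TGF-beta1 10 rose and 3 fell (31.2% and 9.38%, beside 21.9% and 23.2% of all genes), and with C-peptide present 10 rose and 3 fell. UBA6, a ubiquitin-activating enzyme, rose by 0.71 and 0.53. ZFAND2A, a stress-induced proteasome-binding protein, rose by 0.51 and 0.41, and UCHL5, a deubiquitinase of the 19S particle, by 0.50 and 0.37. ADRM1, the ubiquitin receptor that holds UCHL5, rose by 0.35 and 0.32, and POMP, the maturation factor of the core, by 0.34 and 0.28. AKIRIN2, which carries proteasomes into the nucleus, rose by 0.47 and 0.38. The ubiquitin genes UBB and RPS27A did not pass in either comparison, at 0.06 and 0.01 with TGF-beta1. NFE2L2 fell by 0.41 in each, and NFE2L1 fell by 0.22 (adjusted p = 0.0488, limma) without C-peptide, its change of -0.17 with it not passing. The part of these factors in the subunit changes was not tested.

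Among genes of interferon signalling and of peptide loading onto MHC class I, more fell than rose. Of 19 measured genes from a list of 22, 2 rose and 9 fell with TGF-beta1 (10.5% and 47.4%, beside 21.9% and 23.2% of all genes). With C-peptide present 1 rose and 12 fell (5.26% and 63.2%, beside 21.3% and 21.7%). STAT2 fell by 1.38 and 1.24, and IRF9 by 0.71 and 0.68. B2M, the light chain of MHC class I, fell by 0.45 and 0.55. TAP1, the peptide transporter subunit whose promoter neighbours that of PSMB9, fell by 0.35 and 0.30, while its partner TAP2 rose by 0.55 and 0.41. The chaperone CALR rose by 0.62, and its change of 0.23 with C-peptide did not pass. IRF1 did not pass (0.01 and 0.18), and NLRC5, CIITA and PDIA3 were detected on 0 arrays.

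**Figure D4:**
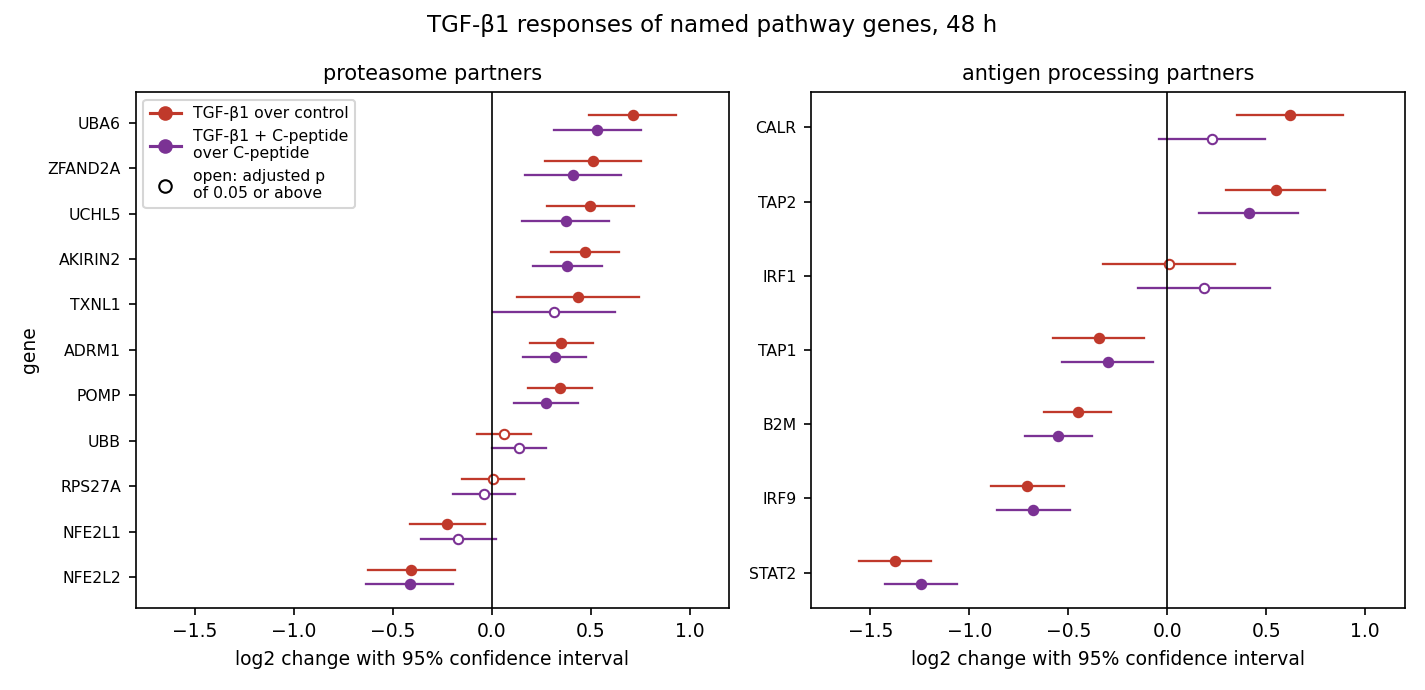
Log2 change with its 95% confidence interval (x axis) of the 11 proteasome partners (left) and 7 antigen processing genes (right) named in the text, for TGF-beta1 over control (red) and TGF-beta1 plus C-peptide over C-peptide (purple) at 48 h, 3 arrays per group. STAT2 lies farthest left at -1.38 and -1.24, and UBA6 farthest right on the left panel at 0.71 and 0.53.

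Markers of cell state moved with these groups. Summed intensity of the 5 epithelial markers was 10918 to 11693 with TGF-beta1, against 18675 to 19686 in 48 h controls, and 10759 to 11486 with both agents, against 18673 to 19054 with C-peptide. Of the 5, CDH1, EPCAM and KRT19 fell in both comparisons (CDH1 fell by 3.06 and 2.97). CDH1 was detected on 1 of 3 TGF-beta1 arrays and 0 of 3 arrays of both agents, at means of 5.43 and 5.26 log2 units. The size of its fall thus rests on values near background. KRT18 did not pass in either, and KRT8 rose by 0.38 with TGF-beta1 while its 0.15 with C-peptide present did not pass. Of the proximal tubule markers PAX8 fell by 1.37 and 1.19. Of 8 leukocyte markers CD68 and CSF1R were measured and PTPRC, CD14, CD3E, CD79A, TYROBP and LAPTM5 were detected on 0 arrays. Their summed intensity was 1052 to 1116 with TGF-beta1, against 1180 to 1288 in controls, and the 2 genes differed. CD68 did not pass (-0.38 and -0.29). CSF1R was called higher in both comparisons, detected on 3 of 3 TGF-beta1 arrays with a mean of 7.30 log2 units, against 0 of 3 controls with a mean of 4.49. Of 5 endothelial markers only PECAM1 was measured, and it was called higher in both, detected on 2 of 3 TGF-beta1 arrays, against 0 of 3 controls. Of 5 fibroblast markers COL1A2 was detected on 0 arrays, and 2 of the other 4, PDGFRB and DCN, were called higher in both. PDGFRB was detected on 3 of 3 TGF-beta1 arrays, against 0 of 3 controls, and DCN on 3 of 3, against 1 of 3. The sum over the 4 measured fibroblast markers was 1966 to 2210 with TGF-beta1, against 1866 to 2019 in controls. CSF1R, PECAM1, PDGFRB and DCN passed the detection filter only through the TGF-beta1 groups, where they were high. Their calls are therefore given as description only. The part of these shifts in the proteasome changes was not tested.

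With C-peptide alone for 48 h, 3 of the 41 proteasome genes rose and 0 fell, when 5.32% of all genes were called (3.82% higher and 1.5% lower). Of the 41, 8 had an unadjusted p under 0.05, a share that was not counted over all genes. Without overlap 8 were higher and 3 lower (13.5% and 17.9% of all genes, 31.5% in all). PSMA3 read 10.94, 10.90 and 10.70 with C-peptide, against 10.48, 10.51 and 10.41 in controls, and rose by 0.38 (SE 0.08, adjusted p = 0.00949, limma). PSMC5, an ATPase, read 11.14, 10.98 and 11.03, against 10.69, 10.80 and 10.63 in controls, and rose by 0.34 (SE 0.09, adjusted p = 0.0245, limma). PSMD13 read 7.03, 6.69 and 6.77, against 6.48, 6.36 and 6.06 in controls, and rose by 0.53 (SE 0.13, adjusted p = 0.0247, limma). These 3 groups did not overlap their controls, but the C-peptide and control arrays lie in different array sets, so agent and set cannot be told apart. The calls were also lost when single arrays were left out, all 3 without control replicate 3 and all 3 without C-peptide replicate 1. PSMA3 also lost its call without C-peptide replicate 2, PSMC5 without control replicate 1 and PSMD13 without control replicate 2. Each of the 3 genes also rose with TGF-beta1 alone, a comparison with the same control arrays. The immunoproteasome subunits PSMB8, PSMB9 and PSMB10 differed by 0.04, 0.08 and 0.22, and none passed. The 4 kept probes of PSMB8 ran from 0.04 to 0.49, and 1 of them was called higher (adjusted p = 0.0341, limma over all kept probes). The dimmer PSMC6 probe was also called higher, at 0.86 (adjusted p = 0.00769, limma over all kept probes), where the probe used had 0.02.

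C-peptide added to TGF-beta1 changed 0 of the 41 genes by the probes used (limma, 2.15% of all genes called, 1.5% higher and 0.65% lower), while 8 were higher and 5 lower without overlap (14.1% and 14.6% of all genes, 28.6% in all). The 3 genes with an unadjusted p under 0.05 were PSMC4 at 0.32 (95% confidence interval 0.12 to 0.51, adjusted p = 0.0746, limma), PSME2 at 0.29 (0.08 to 0.50) and PSMD2 at -0.26 (-0.49 to -0.03). PSMC4 read 9.69, 9.91 and 9.76 with both agents, against 9.51, 9.34 and 9.55 with TGF-beta1, and the groups did not overlap. By the probes used, the separate 95% intervals of the 41 genes lay between -0.49 and 0.51. They are not joint limits over the 41 genes or over their other probes. These groups also lie in different array sets. The dimmer of 2 PSMC6 probes, detected on all 18 arrays, was called higher at 0.85 (adjusted p = 0.0164, limma over all kept probes), where the probe used had 0.05. The interaction term, TGF-beta1 response with C-peptide minus that without it, passed for 0 of the 41 genes and 0% of all genes, with 2 of the 41 at an unadjusted p under 0.05 (PSMD13 and PSMA3). Outside the rule, TXNL1, a thioredoxin-like protein bound to the 19S particle, was higher in both 48 h comparisons of C-peptide, which cross array sets. These were C-peptide alone (0.75, SE 0.15, adjusted p = 0.00472, limma) and C-peptide on top of TGF-beta1 (0.62, SE 0.15, adjusted p = 0.0305, limma). At 18 h, within a set, the TXNL1 mean was 8.36 log2 units with C-peptide, against 8.26 in controls. Its 48 h control arrays, at 7.88, 7.92 and 7.78, also read lower than those with TGF-beta1 alone, at 8.26, 8.23 and 8.40, within a set.

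**Figure D5:**
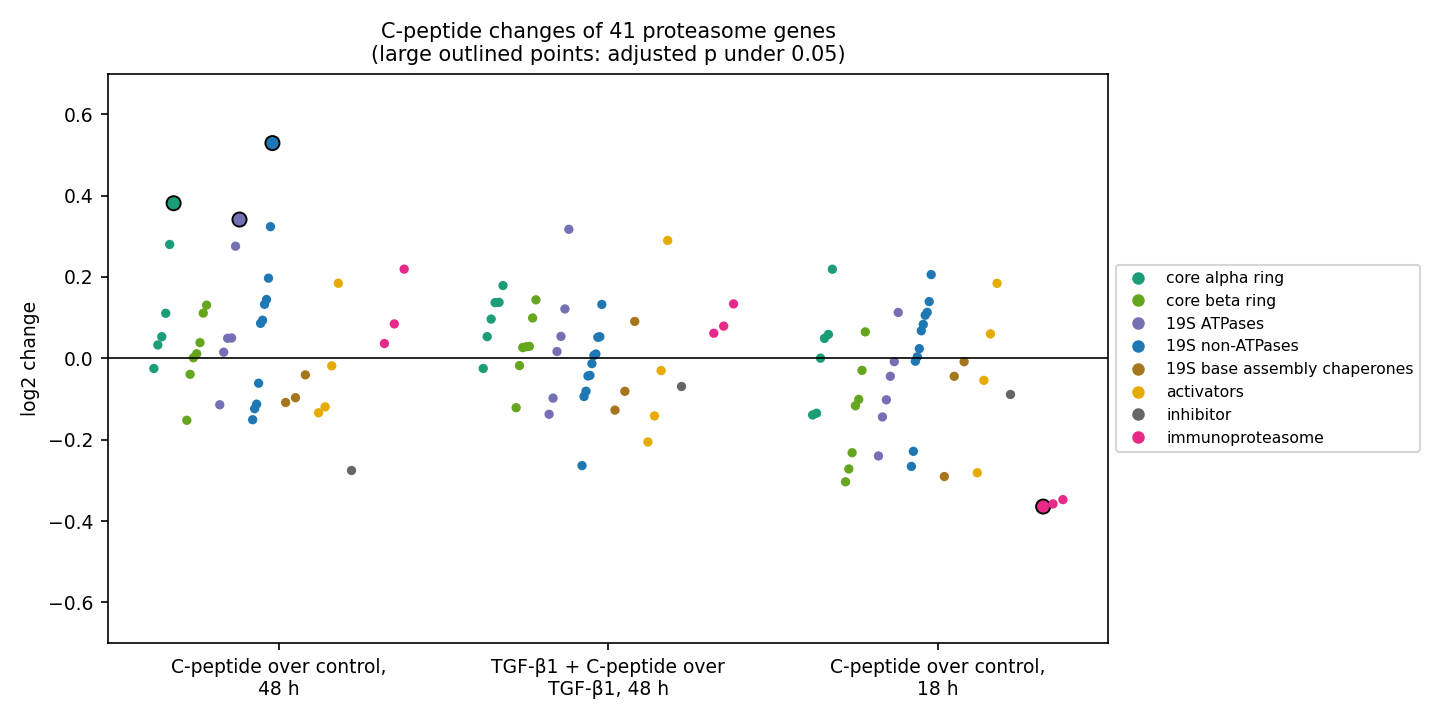
Log2 change (y axis) of the 41 genes, coloured by role, for C-peptide over control at 48 h, TGF-beta1 plus C-peptide over TGF-beta1 at 48 h and C-peptide over control at 18 h (x axis), 3 arrays per group. Only PSMD13, PSMA3 and PSMC5 at 48 h and PSMB8 at 18 h are outlined as called, and the 3 immunoproteasome genes lie together at -0.36 to -0.35 at 18 h.

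At 18 h, within a single array set, PSMB8 was the only one of the 41 genes called with C-peptide by the probes used, when 2.29% of all genes were called (1.15% higher and 1.15% lower). PSMB8 read 9.86, 9.66 and 9.93 with C-peptide, against 10.28, 10.24 and 10.02 in 18 h controls, and fell by 0.36 (SE 0.09, adjusted p = 0.0384, limma). The groups did not overlap, but the call was lost in 6 of 15 alternative fits (without control replicate 1 or 2, without C-peptide replicate 2, with no detection filter, with the mean of a gene's probes or with its own groups only), with adjusted p up to 0.365. Its 4 kept probes ran from -0.40 to -0.17, and only the probe used passed. The second probe of PSMD4, at -0.39, was called lower (adjusted p = 0.0434, limma over all kept probes), where the probe used had -0.27. PSMB10 and PSMB9 had changes of nearly the same size, -0.36 (adjusted p = 0.057, limma) and -0.35 (adjusted p = 0.0864, limma), that did not pass and whose groups overlapped. PSMB10 read 10.25, 10.39 and 10.60, against 10.91, 10.86 and 10.54 in controls, and PSMB9 read 7.79, 7.64 and 7.39, against 8.19, 7.89 and 7.78. The standard subunits PSMB7 (-0.30, adjusted p = 0.0559, limma) and PSMB6 (-0.27, adjusted p = 0.0952, limma) had changes of the same sign. In all 25 of 41 changes were negative and 13 had an unadjusted p under 0.05, shares that were not counted over all genes. Without overlap 2 genes were higher and 6 lower (9.06% and 10.3% of all genes, 19.3% in all). Control replicate 3 lay nearest the C-peptide arrays for PSMB8, PSMB10, PSMB6 and PSMB7, and without it 8 of the 41 were called, all lower, beside 14.3% of all genes. C-peptide replicate 3 had the lowest array weight of all 18 arrays in limma, 0.175.

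Between untreated cells, 48 h against 18 h, 0 of the 41 genes passed (limma, 0.00802% of all genes called). An unadjusted p under 0.05 was found for 12, a share that was not counted over all genes. Without overlap 2 were higher and 5 lower (12.7% and 13% of all genes, 25.8% in all). The lowest adjusted p was that of PSMC4 (0.0652, limma), at -0.39 (SE 0.09), with 8.9996, 9.05 and 9.11 in 48 h controls, against 9.46, 9.51 and 9.36 in 18 h controls. PSMB6 differed by -0.32 and PSMD8 by -0.40, neither passing. The median of the 41 was -0.10, against 0.00 over all genes. These controls were harvested together after the same medium changes and lie in different array sets, so incubation time and set cannot be told apart.

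Of the 41 genes, 13 had more than 1 kept probe, 30 probes in all, and 0 had probes called in both directions for TGF-beta1. PSMA1's second probe rose by 0.42 (adjusted p = 0.00125, limma over all kept probes), where the probe used, at 0.13, did not pass. With C-peptide present the second probes of PSMA4 (0.37) and PSMD6 (0.35) were called higher, where the probes used were not. PSMC3IP, matched by name only, rose by 0.35 (SE 0.11, adjusted p = 0.0119, limma) with TGF-beta1 and by 0.35 (SE 0.11, adjusted p = 0.014, limma) with C-peptide present.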

How the data were processed

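RNA from 18 flasks of HK-2 cells was measured on 18 arrays, and groups were taken from the sample titles. The deposited table holds mean bead intensity per probe, exported without normalization from GenomeStudio 1.1.1 per the file headers, and a detection fraction that equals 1 minus the detection p. Between 23.4% and 28.1% of values per array were below 0. The authors' other table, deposited with normalized intensity, served as an alternative. BeadStudio is also named, per the submitters' processing notes. Each probe's value rests on a median of 40 to 42 beads, and precision is limited by having 3 arrays in a group.

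Intensities were corrected and normalized with neqc (offset 16) of limma 3.58.1 in R 4.3.3. Probes detected (p under 0.01) on at least 3 arrays entered the fit. Where several probes carried a gene's name, the brightest on average was used, giving 12468 genes. Older names were updated through RefSeq (22068 probe names current, 5138 updated, 21597 kept as given). A linear model of 6 group means was fitted to 18 arrays (12 residual degrees of freedom; lmFit, contrasts.fit, eBayes with trend), with Benjamini-Hochberg adjustment over all genes per comparison and a threshold of 0.05. The model was tested on simulated data. P-values are two-sided.

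The genes, lists and rules were chosen with earlier results of these data known. Values per array are given for PSMB5 to PSMB10, the activators, PSMF1 and up to 8 called genes with the largest change in each direction of a comparison. Alternatives changed the normalization, background step, deposited table, detection filter, probe rule, groups fitted, array weights, a replicate block and each array left out. Some listed genes are not reported here by name. Promoter windows are from RefSeq (GRCh38.p14).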

Additional observations from a re-analysis of the deposited data

Results flagged for a closer look

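Of the proteasome genes, PSMD1 and PSME2 had C-peptide changes of opposite sign at the 2 incubation times. Every C-peptide array lay on one side of its controls at 48 h and on the other side at 18 h. Groups without overlap, in either direction, were found for 31.5% of all genes at 48 h and 19.3% at 18 h. The share of all genes on opposite sides was not counted. The log2 change of PSMD1, a 19S scaffold subunit, was -0.11 at 48 h and 0.14 at 18 h. That of PSME2, a subunit of the PA28 activator, was 0.18 at 48 h and -0.28 at 18 h. None of these 4 changes passed in limma (adjusted p = 0.399, 0.264, 0.279 and 0.0987), and the difference between the times was not tested. The 48 h comparison crosses array sets and the 18 h comparison does not, so time and set cannot be told apart.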

How the results depend on the processing

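The counts for TGF-beta1 were steady, at 24 to 26 of 41 when an array was left out and 24 to 31 under the other alternatives (28 as reported). With C-peptide present they were 20 to 24 and 19 to 31 (24 as reported), and the median change of the 41 genes was 0.34 under median scaling in place of 0.22. The C-peptide counts were not steady. At 48 h 3 genes became 7 with array weights and 0 to 5 when an array was left out, 0 of them in the absence of control replicate 3 or C-peptide replicate 1, and 5 in that of C-peptide replicate 3. At 18 h 1 gene became 0 with no detection filter, with the mean of probes or with its own groups only, 6 with array weights, and 0 to 8 when an array was left out, with 8 without control replicate 3. For C-peptide added to TGF-beta1, 0 became 1 with median scaling or its own groups only and 2 with array weights, and stayed 0 when any array was left out. For the controls, 0 became 14 with array weights and 0 to 7 when an array was left out, with 7 without 18 h control replicate 3. The interaction count was 0 under every alternative run. The cause of these shifts was not tested. Apart from the 18 h fit without control replicate 3, the share of all genes called under these alternatives is not reported here. A change in a count may therefore be shared with all genes.

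With C-peptide present the sign turned for PSMB5 (-0.00763 when the last C-peptide array was left out, in a range of -0.00763 to 0.104 over single arrays), PSME4 (-0.0299 when the first was left out, in a range of -0.0299 to 0.182) and PSMF1 (0.0374, median scaling), none of them called. Of the values of single genes under alternatives, 577 kept their side of the threshold and their sign, 45 lost a call, 5 gained one and 3 changed sign.

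Groups share replicate numbers, and the labels do not say whether the numbers pair the flasks. Deviations from group means had correlations of 0.03, -0.22 and 0.13 between same-numbered TGF-beta1 and control arrays. Between differently numbered ones they ran from -0.38 to 0.35. With groups of 3 these correlations depend on each other, so they cannot decide whether flasks were paired. With the replicate block 28 genes were called for TGF-beta1, 24 with C-peptide present, 3 with C-peptide alone at the later time, 1 at the earlier time and 0 elsewhere, as without it, although PSME2 passed and PSME3 did not with C-peptide present. The array set could not be fitted as a random block, since its estimated correlation was 0 in a model that already separates the sets, and that alternative was not run.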
